A study of Mus musculus with 6 samples.

Results

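The 74 genes described here build the outer parts of glycans and start O-linked chains. They are the genes of the array whose symbol begins with *B4galt*, *B3galt*, *B3gnt*, *St3gal*, *St6gal*, *St8sia*, *Galnt* or a numbered *Fut*, together with the transporter genes *Slc35a1*, *Slc35a2*, *Slc35a3* and *Slc35c1*, and they were 74 of the 23152 genes measured. All 74 had a value, since no gene was left out for low signal, and 752 of the 233753 probe sets with 1 gene symbol belonged to them. Transcripts were measured in germ cells isolated by enzymatic digestion from the testes of 22 dpp (days post-partum) FVB mice. The 3 control mice carried floxed *Mgat1* alleles (*Mgat1*[F/F]) and no Cre, and the 3 *Mgat1* cKO mice carried the same floxed alleles with a Stra8-iCre transgene, whose *Stra8* promoter drives Cre in germ cells from the spermatogonial stage, so that other testis cells in a preparation keep *Mgat1*. Each mouse had its own Affymetrix Mouse Gene 2.0 ST array. Values are log2 RMA signals, the value of a gene is the mean of its probe sets, and differences are *Mgat1* cKO minus control.

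Glycoproteins and glycolipids receive their outer sugars in the Golgi, from transferases that use nucleotide sugars as donors. Polypeptide GalNAc-transferases (*Galnt* genes) begin O-GalNAc glycans by adding GalNAc to serine or threonine. Galactosyltransferases (*B4galt*, *B3galt*) and beta-linked GlcNAc-transferases (*B3gnt*) extend chains, and sialyltransferases (*St3gal*, *St6gal*, *St6galnac*, *St8sia*) and fucosyltransferases (*Fut*) cap or decorate them. *Mgat1* encodes GlcNAcT-I, the enzyme that opens the route to complex N-glycans, so without it N-glycans carry no antennae for these enzymes to work on, while O-glycans and glycolipids are made by other routes. Many of the enzymes are members of families with overlapping acceptors, and some are expressed largely in the testis.

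On these arrays the *Mgat1* transcript itself was 6.91, 7.003 and 6.82 in the control mice and 6.87, 6.69 and 6.80 in the mutant mice. The groups overlapped, the difference was -0.13 ± 0.10 (log2, SE, n = 3 per group), and limma gave an adjusted p of 0.356, so the array mean of this gene did not separate the genotypes. The sources do not say which of its 12 probe sets lie in the deleted part of the gene, so this check is limited. The paper tested the deletion by other means in mutant germ cells of this age. It reports a strong reduction of *Mgat1* transcripts by qRT-PCR and only deleted alleles by PCR of genomic DNA. It also reports that the glycoprotein basigin lacked complex N-glycans there. Arrays correlated at 0.992 to 0.994 within a genotype and at 0.950 to 0.970 between genotypes.

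Marker lists of germ cell stages and of other testis cells were compared, and several of them differed between the groups. A list is named for a cell type, and its signal does not show that such cells were present. The paper saw round spermatids in both genotypes at this age, without an apparent histological difference. It counted no elongated spermatids in either genotype a little later. It also reports no significant reduction of Sertoli cells, spermatogonia or spermatocytes at slightly later ages. All 12 elongating spermatid markers and 10 of 11 round spermatid markers rose, with median log2 differences of 2.73 and 1.70. The mean signal of the elongating spermatid list was 7.60 to 7.82 on control arrays and 10.44 to 10.76 on mutant arrays, and that of the round spermatid list was 8.75 to 9.06 and 10.46 to 10.64. Early meiotic markers had 1 of 11 raised and 7 lowered (9.69 to 9.78 against 9.27 to 9.50), pachytene markers had 6 of 12 raised and 2 lowered (9.92 to 10.05 against 10.17 to 10.25), and 3 of 12 spermatogonial markers fell (7.48 to 7.71 against 7.34 to 7.45). Of the other testis cells, 5 of 12 Sertoli markers fell (8.17 to 8.28 against 7.77 to 8.04), 2 of 9 Leydig markers fell and 1 rose (8.54 to 8.98 against 7.48 to 8.61), 6 of 10 peritubular and stromal markers fell (8.23 to 8.57 against 7.55 to 7.96), and 5 of 11 macrophage and immune markers fell and 1 rose (7.69 to 8.07 against 6.99 to 7.69). Endothelial markers had 2 of 8 raised and 1 lowered (6.86 to 7.19 against 6.91 to 7.23), and neither of 2 red blood cell markers was called (6.66 to 7.16 against 6.75 to 7.06). Over all genes, 13.3% were raised and 18.4% lowered, and the lists were not tested against these shares. Small counts, such as 3 of 12 spermatogonial, 2 of 9 Leydig or 2 of 8 endothelial markers, need not reflect a change of that cell type. In a bulk preparation, fewer cells of a type and less RNA per cell cannot be told apart. The part that these lists have in the differences of the glycosyltransferases was not tested.

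In the mutant 7 of the 74 genes rose and 14 fell at an adjusted p under 0.05 in limma, adjusted over all genes. Of all genes tested, 13.3% were raised and 18.4% were lowered. The corresponding shares of the glycosyltransferases, 9.46% and 18.9%, lay near these backgrounds. The largest rises were *Galntl5*, *St8sia3* and *Galntl6*, the 3 members that rose at least 2-fold (4.18% of all genes did). No member fell at least 2-fold (0.488% of all genes did). The remaining 53 members were not called and had differences of -0.37 to 0.27. Over all 74, 33 were higher and 41 lower in the mutant, with a median log2 difference of -0.08 beside -0.02 over all genes. Of the 23152 genes, 10788 were higher and 12364 lower. These shares of calls and of signs are also the background for the family counts below, which were not tested against them. In 33 members (44.6%) the control and mutant arrays did not overlap, against 46.7% of all genes. The standard error of the difference was 0.08 to 0.21 over the members, with a median of 0.11.

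**Figure D1:**
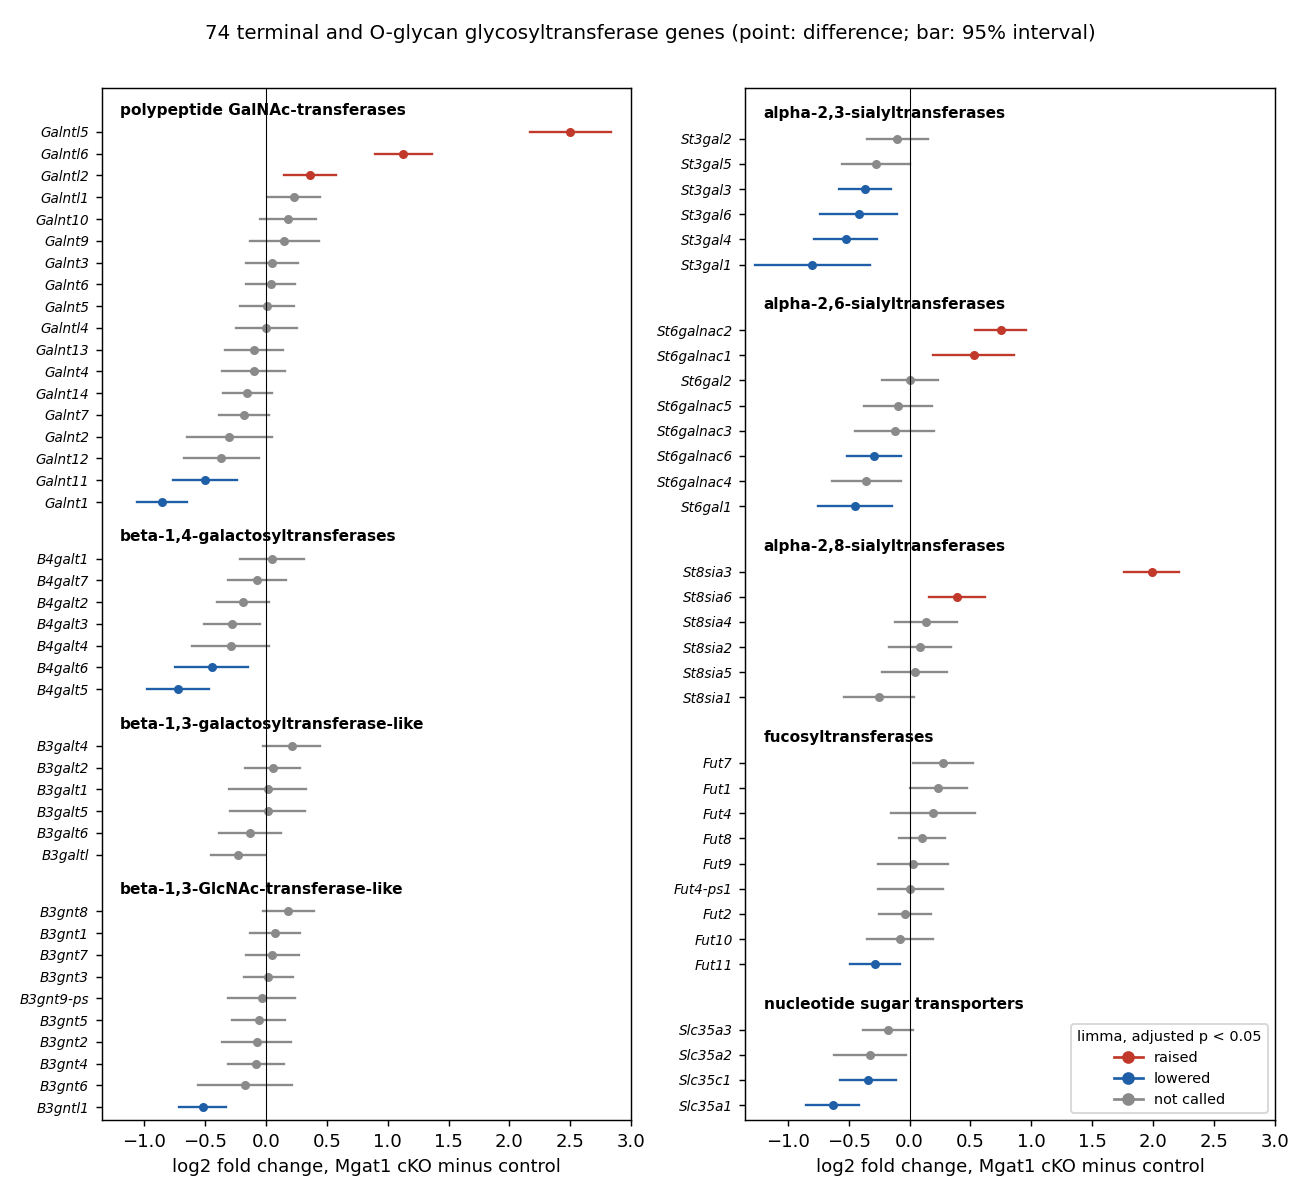
Log2 fold change (*Mgat1* cKO minus control) of all 74 members by family, with points for the difference of the means of 3 mice per group and bars for its 95% interval; red marks raised, blue lowered and grey not called members (limma, adjusted over all genes). *Galntl5* (2.50), *St8sia3* (1.99) and *Galntl6* (1.13) lie far to the right of the other members, and all 6 *St3gal* genes and all 4 transporters lie left of 0.

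The polypeptide GalNAc-transferases were the largest family, with 18 genes, and held the largest rise and the largest fall of all members. Of the 18, 3 rose (*Galntl5*, *Galntl6*, *Galntl2*), 2 fell (*Galnt1*, *Galnt11*) and 13 were not called, with a family median of 0.01. *Galntl5*, a testis-expressed member of the family that in the mouse is linked to sperm motility, had values of 8.72, 8.30 and 8.89 in control mice and 11.26, 11.12 and 11.03 in mutant mice. The lowest mutant value lay 2.14 log2 units above the highest control value. The difference was 2.50 ± 0.15 (SE), a 5.65-fold rise (adjusted p = 3.04e-06). Each of its 11 probe sets rose by itself, by 2.23 to 2.91, so the rise was of similar size on all of them.

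The bases before the *Galntl5* start are shown because this gene led the raised members, beside those of *B4galt5*, the lowered gene among those with a promoter window in RefSeq that kept its call under every setting. Both sequences are from RefSeq (GRCm38.p6) and end at the base before the gene start: *Galntl5* at chr5:25181230-25181479 on the plus strand and *B4galt5* at chr2:167349179-167349428 on the minus strand. Capitals mark the motif matches.
Galntl5: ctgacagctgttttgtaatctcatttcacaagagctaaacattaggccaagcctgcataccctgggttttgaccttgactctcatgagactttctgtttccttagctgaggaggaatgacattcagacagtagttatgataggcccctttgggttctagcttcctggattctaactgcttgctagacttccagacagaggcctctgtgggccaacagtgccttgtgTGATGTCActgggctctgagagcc
B4galt5: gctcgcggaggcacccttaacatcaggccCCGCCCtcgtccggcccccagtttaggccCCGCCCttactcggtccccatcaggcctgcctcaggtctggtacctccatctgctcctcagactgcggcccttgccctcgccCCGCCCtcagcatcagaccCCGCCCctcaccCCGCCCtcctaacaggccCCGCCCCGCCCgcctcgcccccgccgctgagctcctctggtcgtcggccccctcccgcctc

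4 motifs were searched on both strands, chosen with the *Galntl5* sequence in view: TGACGTCA (the cAMP response element), TGATGTCA (a near form of it), TATAAA and GGGCGG (the GC box). The *Galntl5* window held TGATGTCA, 24 bases before the start, and none of the other 3. The *B4galt5* window held 7 copies of the GC box in its reverse form CCGCCC, of which the 2 nearest the start share a base. Windows were given for 54 of the members, some with several starts, 70 windows in all. TGATGTCA occurred in 1 of these (*Galntl5*; 2.86% of the 21263 windows of protein-coding genes), TGACGTCA in 2 (*B4galt3*, *Galnt11*; 1.92% of those windows) and TATAAA in 2 (*Galntl6*, *Slc35a1*; 11.6% of those windows). The GC box occurred in 34 of the 70 (48.6%, against 42.6% of protein-coding windows). By gene, 34 of the 54 members with a window held it, among them none of the 4 raised and 7 of the 11 lowered members. A match is a match of letters only, and with 4 raised genes these counts are a description.

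*Galntl6* stood apart from *Galntl5* in the way its rise was spread over probe sets. As a gene mean it was 5.54, 5.62 and 5.72 in control mice and 6.91, 6.64 and 6.71 in mutant mice, with no overlap, a difference of 1.13 ± 0.10 (SE; 2.18-fold; adjusted p = 4.39e-05). Behind this mean, 2 of its 16 probe sets rose by 7.66 and 5.62 (adjusted p = 0.00137 and 0.00113 over all probe sets). The first of these had 3.99, 4.62 and 6.16 in control mice and 12.38, 12.45 and 12.91 in mutant mice. The second had 5.84, 6.32 and 5.59 in control mice and 11.14, 11.40 and 12.08 in mutant mice. These 2 probe sets carry consecutive identifiers and were dim in every control and bright in every mutant. The other 14 probe sets differed by -0.24 to 1.27, and 2 of them were called, at 0.86 and 0.59. With the median of its probe sets in place of the mean the *Galntl6* difference was 0.67 and with the brightest probe set 7.66, and the call was kept under both.

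The third raised gene of the family was *Galntl2* (current symbol *Galnt15*). It had 5.80, 5.63 and 5.71 in control mice and 6.08, 5.97 and 6.16 in mutant mice, with a difference of 0.36 ± 0.10 (SE; adjusted p = 0.0188). None of its 12 probe sets was called alone, 10 of them were higher in the mutant, and the call was lost under 5 of 18 other settings. The groups did not overlap, with a gap of 0.17 log2 units.

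*Galnt1*, a broadly expressed enzyme that starts O-glycans on many acceptors, was the member with the largest fall. Its values were 7.76, 7.84 and 7.71 in control mice and 6.94, 6.84 and 6.98 in mutant mice. The mutant values lay below every control value and the spread within each group was small (SD 0.064 and 0.075, n = 3). The difference was -0.85 ± 0.09 (SE; 1.81-fold lower; adjusted p = 1.24e-04), and 9 of 18 probe sets were lowered. *Galnt11*, another initiating enzyme, had 6.73, 6.71 and 6.96 in control mice and 6.42, 6.11 and 6.37 in mutant mice, a difference of -0.50 ± 0.12 (SE; adjusted p = 0.0102), with 4 of 16 probe sets lowered.

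*Galnt3*, whose product starts O-glycans on a narrower set of proteins including the hormone FGF23, had 10.98, 10.95 and 11.10 in control mice and 11.03, 11.16 and 10.998 in mutant mice. The groups overlapped (difference 0.05, 95% interval -0.16 to 0.26, adjusted p = 0.730). Of its 17 probe sets 12 were higher in the mutant and 1 was called, lowered (-0.91, adjusted p = 0.044). That probe set had 7.73, 7.37 and 7.30 in control mice and 6.47, 6.86 and 6.35 in mutant mice. *Galnt7*, an enzyme that adds further GalNAc to peptides that already carry it, was not called as a gene (-0.18, adjusted p = 0.156), but 1 of its 16 probe sets rose by 1.37 (adjusted p = 0.00585), from 8.47, 8.63 and 8.35 in control mice to 10.04, 9.65 and 9.87 in mutant mice. *Galntl4* (current symbol *Galnt18*) had a gene difference of 0.00 with 1 of 14 probe sets lowered by 2.41 (adjusted p = 0.0226). Its values at that probe set were 6.53, 6.72 and 6.40 in control mice and 3.14, 4.49 and 4.78 in mutant mice, without overlap. The gene mean of *Galntl4* was close to 0. That of *Galnt7* went the other way from its raised probe set, with 12 of 16 probe sets lower and no overlap of the groups. Neither of these means showed the probe set that differed.

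**Figure D2:**
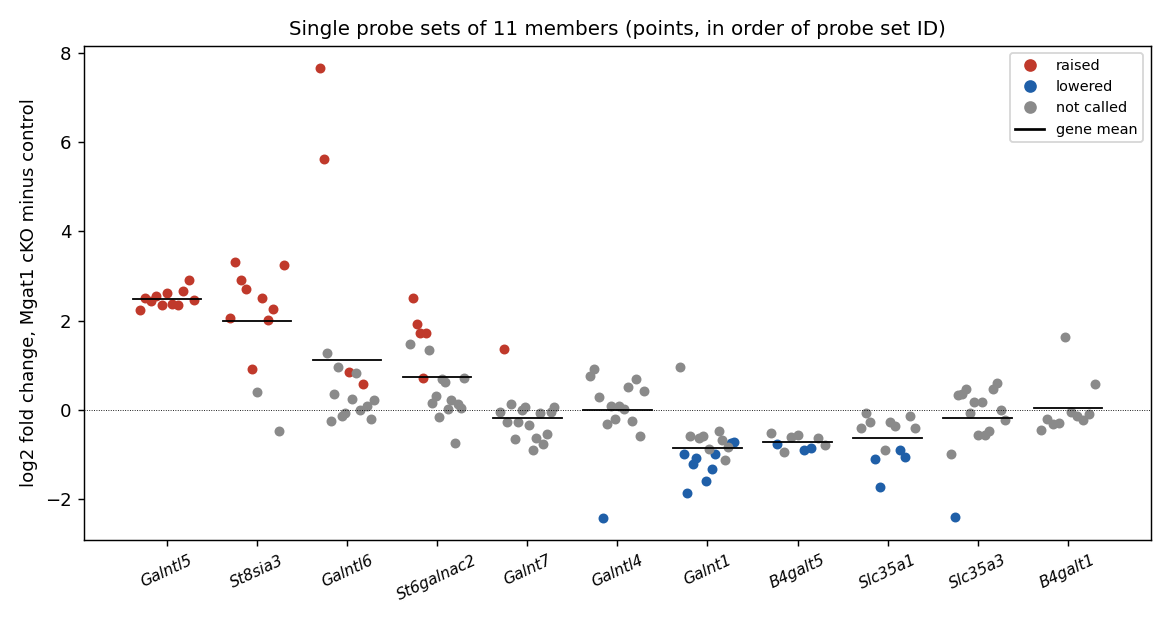
Log2 fold change (*Mgat1* cKO minus control, 3 mice per group) of each probe set of 11 members, as points in the order of their identifiers, with a black line at the gene mean; red marks raised, blue lowered and grey not called probe sets (limma, adjusted over all probe sets). The 11 probe sets of *Galntl5* lie together between 2.23 and 2.91, while *Galntl6* has 2 probe sets at 7.66 and 5.62 above 14 others, and *Galnt7*, *Galntl4* and *Slc35a3* each have 1 called probe set away from the rest.

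Over all members, 32 of the 752 probe sets were raised and 36 were lowered (4.26% and 4.79%, beside 4.98% and 3.97% of all probe sets tested). The called probe sets belonged to 26 members, 14 of them called as genes. Among the members not called as genes, a probe set was raised in *Fut10*, *Galnt7* and *St8sia5*. One was lowered in *B3galtl*, *B4galt3*, *Galnt3*, *Galnt14*, *Galntl4*, *Slc35a2*, *Slc35a3*, *St3gal2* and *St6galnac4*. Of the 32 raised probe sets, 11 belonged to *Galntl5*, 9 to *St8sia3* and 5 to *St6galnac2*, and of the 36 lowered probe sets 9 belonged to *Galnt1*.

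Of the 7 genes of the *B4galt* family of galactosyltransferases, 2 fell (*B4galt5*, *B4galt6*), none rose, and 6 of 7 had a negative difference, with a median of -0.28. *B4galt5*, the main lactosylceramide synthase, which opens the path to most glycosphingolipids, had 9.35, 9.53 and 9.24 in control mice and 8.54, 8.60 and 8.81 in mutant mice. The groups did not overlap, and the difference was -0.73 ± 0.11 (SE; 1.65-fold lower; adjusted p = 0.00137). All 9 of its probe sets were lower, by 0.51 to 0.94, and 3 were called. *B4galt6*, the other lactosylceramide synthase, fell by 0.45 (adjusted p = 0.0290), with all 11 probe sets lower and 1 called, and lost its call under 9 of 18 other settings.

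*B4galt1*, which galactosylates complex N-glycans and whose product is also found on the sperm surface in the mouse, had 8.32, 8.16 and 8.38 in control mice and 8.25, 8.54 and 8.20 in mutant mice. The groups overlapped (difference 0.05, 95% interval -0.21 to 0.31, adjusted p = 0.790), and the sign of the difference turned under 4 other settings. Among the 6 *B3galt*-like genes none was called, with differences of -0.23 to 0.21. Among the 10 *B3gnt*-like genes 1 was called: *B3gntl1* had 7.20, 7.10 and 7.17 in control mice and 6.63, 6.69 and 6.59 in mutant mice, a difference of -0.52 ± 0.09 (SE; adjusted p = 0.00208). Its groups were well apart, 15 of its 16 probe sets were lower and 2 of them were called. The other 9 had differences of -0.18 to 0.18.

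All 6 alpha-2,3-sialyltransferases, the *St3gal* genes, which add sialic acid to galactose, had a negative difference, and 4 of them fell, with a median of -0.39. Over all genes, 12364 of 23152 had a negative difference and 18.4% fell. *St3gal1*, which caps core 1 O-glycans, had 7.25, 7.89 and 7.43 in control mice and 6.34, 7.13 and 6.70 in mutant mice. The 3 mutant mice lay below the 3 control mice, but both groups were wide (SD 0.33 and 0.40, n = 3). The difference was -0.80 ± 0.21 (SE; adjusted p = 0.0183), none of its 12 probe sets was called alone, and the call was lost under 6 of 18 other settings. *St3gal4*, which sialylates N-glycan and O-glycan antennae, had 7.58, 7.96 and 7.89 in control mice and 7.36, 7.29 and 7.20 in mutant mice, a difference of -0.53 ± 0.12 (SE; adjusted p = 0.00809). All 12 *St3gal4* probe sets were lower. *St3gal6* (-0.42, adjusted p = 0.0483) and *St3gal3* (-0.37, adjusted p = 0.0162), which act on similar antennae, were also called, and these calls were lost under 11 and 4 of the 18 other settings. With the median of probe sets the *St3gal3* difference was -0.14. *St3gal5*, which makes the ganglioside GM3, had -0.28 (adjusted p = 0.124), and *St3gal2* had -0.10 (0.041 with the brightest probe set).

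The 8 alpha-2,6-sialyltransferase genes were split, with 2 raised (*St6galnac2*, *St6galnac1*) and 2 lowered (*St6gal1*, *St6galnac6*). *St6galnac2* and *St6galnac1* encode enzymes that add sialic acid to the GalNAc of O-glycans. *St6galnac2* had 7.08, 7.26 and 7.14 in control mice and 7.96, 7.82 and 7.93 in mutant mice, without overlap, a difference of 0.75 ± 0.09 (SE; 1.68-fold; adjusted p = 3.75e-04). Its rise was carried by some of its probe sets. Of 18, 5 were called, with rises of 0.71 to 2.52, and the largest of them went from 8.28, 8.11 and 8.18 in control mice to 10.98, 10.57 and 10.57 in mutant mice. With the median of its probe sets the difference was 0.21 and the call was lost. With the brightest probe set it was 1.71 and the call was kept. *St6galnac1* had 5.48, 5.38 and 5.76 in control mice and 6.36, 5.87 and 5.97 in mutant mice, a difference of 0.53 ± 0.15 (SE; adjusted p = 0.0245). The groups were 0.11 log2 units apart, and none of its 5 probe sets was called alone. Its call was lost under 6 of 17 other settings, among them the further quantile normalization, the brightest probe set and the one-way test.

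*St6gal1*, the main enzyme that adds alpha-2,6-linked sialic acid to N-glycans, had 6.77, 7.19 and 6.86 in control mice and 6.29, 6.65 and 6.52 in mutant mice, a difference of -0.45 ± 0.14 (SE; adjusted p = 0.0319). The groups did not overlap, and the call was lost under 7 of 18 other settings. *St6galnac6*, which sialylates gangliosides, had -0.29 (adjusted p = 0.0488), kept its call under 3 of 18 other settings and had the opposite sign (0.09) on its brightest probe set.

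Of the 6 alpha-2,8-sialyltransferase genes, whose products add sialic acid to sialic acid, 2 rose and none fell, with a median of 0.11. *St8sia3*, known mostly from the brain, where it forms short sialic acid chains, had 7.55, 7.49 and 7.62 in control mice and 9.69, 9.44 and 9.49 in mutant mice. The lowest mutant value was 1.83 log2 units above the highest control value. The difference was 1.99 ± 0.10 (SE; 3.97-fold; adjusted p = 1.44e-06), and 9 of 11 probe sets rose, by 0.92 to 3.31. The other 2 had 0.40 and -0.47. *St8sia6* had 5.92, 5.71 and 5.84 in control mice and 6.35, 6.12 and 6.17 in mutant mice, a difference of 0.39 ± 0.10 (SE; adjusted p = 0.0182), with 10 of 12 probe sets higher and none called alone. The *St8sia6* call was lost under 5 of 18 other settings, among them the median of probe sets, the brightest probe set and the one-way test. The other 4 genes, among them the polysialyltransferases *St8sia2* (0.09) and *St8sia4* (0.14), were not called.

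**Figure D3:**
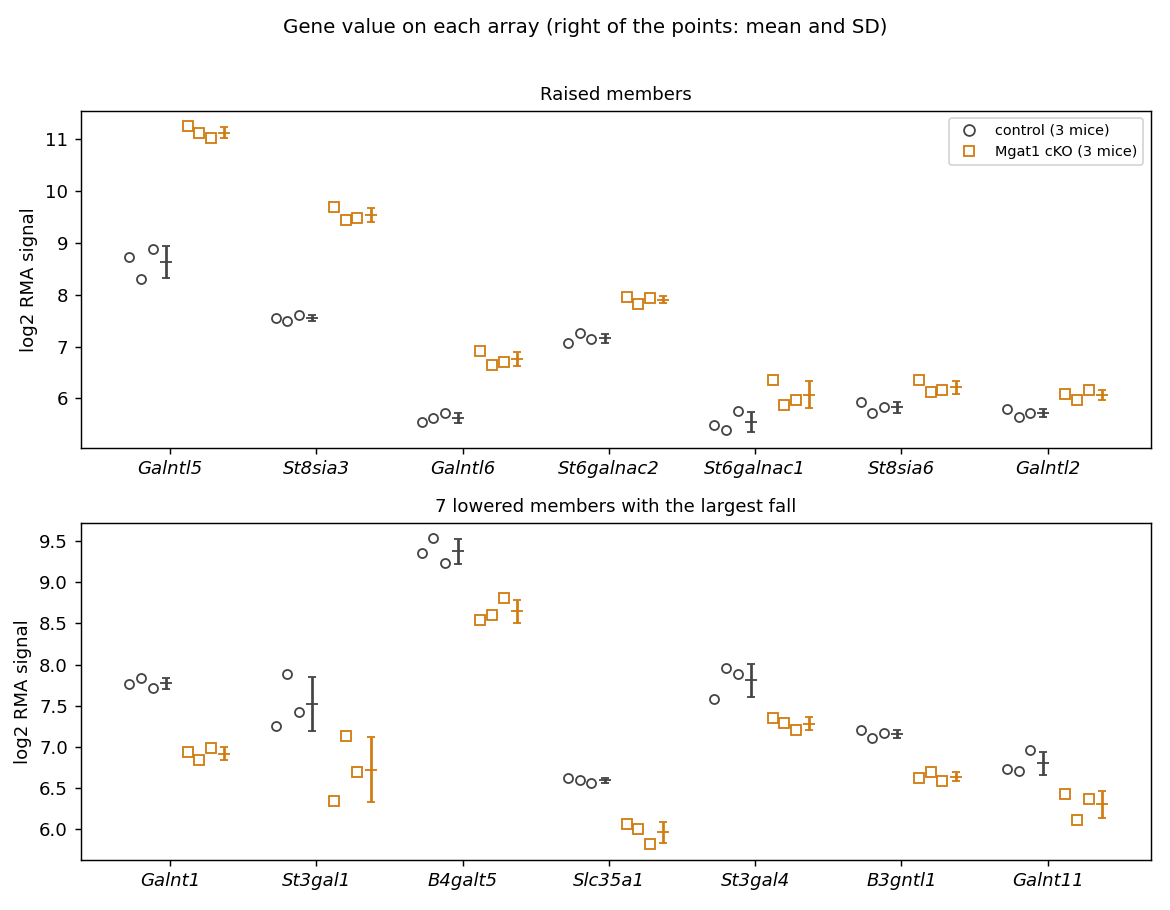
Gene value (log2 RMA signal) on each array for the 7 raised members (top) and the 7 lowered members with the largest fall (bottom), with open circles for the 3 control mice, open squares for the 3 *Mgat1* cKO mice and, to their right, the group mean with its SD. The groups overlap in none of the 14 genes; the gap is widest in *Galntl5* and *St8sia3*, and *St3gal1* has the widest spread within groups among the lowered genes.

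Among the 9 fucosyltransferase genes only *Fut11* was called, with -0.28 (adjusted p = 0.0425), and it kept that call under 4 of 18 other settings. The median of the family was 0.03. *Fut8* adds the core fucose of N-glycans, a step that follows the action of GlcNAcT-I. It had 10.19, 10.26 and 10.24 in control mice and 10.35, 10.35 and 10.30 in mutant mice, a difference of 0.10 (95% interval -0.09 to 0.29, adjusted p = 0.392), although the groups did not overlap. *Fut10* had -0.08 as a gene, while its brightest probe set rose by 0.96 (adjusted p = 0.0337 over all probe sets). *Fut4* and its pseudogene *Fut4-ps1* are related in sequence, so that their signals (0.19 and 0.01) are uncertain.

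All 4 nucleotide sugar transporters had a negative difference of gene means (median -0.33), and 2 of them fell. *Slc35a1*, which carries CMP-sialic acid, the donor of every sialyltransferase above, into the Golgi, had 6.62, 6.60 and 6.56 in control mice and 6.07, 5.998 and 5.82 in mutant mice. The difference was -0.63 ± 0.10 (SE; 1.55-fold lower; adjusted p = 0.00124). All 12 of its probe sets were lower and 4 were called, but the falls ranged from -0.07 on the brightest to -1.73. *Slc35c1*, the transporter of GDP-fucose, had 7.49, 7.56 and 7.29 in control mice and 7.16, 7.01 and 7.14 in mutant mice, a difference of -0.34 ± 0.10 (SE; adjusted p = 0.0315). Its call was kept under 5 of 18 other settings, and its brightest probe set had 0.24. 

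*Slc35a2*, the UDP-galactose transporter, had 6.52, 6.49 and 6.06 in control mice and 5.99, 5.98 and 6.12 in mutant mice. The groups overlapped through control 3 and mutant 3 (difference -0.33, adjusted p = 0.0886), and 1 of its 14 probe sets was lowered, by 1.08. Without control replicate 3 the gene was called, at -0.47 (adjusted p = 0.0124). *Slc35a3*, the transporter of UDP-GlcNAc, had 7.46, 7.48 and 7.63 in control mice and 7.36, 7.31 and 7.35 in mutant mice (difference -0.18, adjusted p = 0.163). Its direction depended on the probe sets used, as 7 of the 15 were higher in mutant mice and leaving out the dimmest 50% gave 0.087. The brightest probe set gave 0.47. It was called in the limma fit that took each gene by its brightest probe set (adjusted p = 0.0492). Adjusted over all probe sets, it was not called (adjusted p = 0.115). Of the 15, 1 fell by 2.39 (adjusted p = 0.00743), from 7.76, 6.69 and 7.45 in control mice to 5.01, 5.12 and 4.60 in mutant mice. 

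Members that lie next to each other in the genome did not all move together. There were 5 pairs of members that were neighbors among the protein-coding genes of RefSeq. *St6galnac2* and *St6galnac1* on chromosome 11 both rose (0.75 and 0.53). *Galntl5* and *Galnt11* on chromosome 5 were called in opposite directions (2.50 and -0.50). On chromosome 8, *Galntl6* rose (1.13) beside *Galnt7* (-0.18, not called). *St6galnac6* fell (-0.29) beside *St6galnac4* (-0.35, adjusted p = 0.0613) on chromosome 2, and *St6galnac5* and *St6galnac3* on chromosome 3 were not called (-0.09 and -0.12).

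The enzymes that supply these transferases with donors were compared as a separate list. The background for this list and the further ones below is the share of all genes, 18.4% lowered and 13.3% raised. Of 17 measured genes for the synthesis of sialic acid, galactose, GlcNAc and fucose donors, 6 fell and none rose, with a median of -0.14. They included 3 genes of the hexosamine route, *Gfpt2* (-0.90, adjusted p = 0.00323), *Pgm3* (-0.70, adjusted p = 0.00456) and *Gnpnat1* (-0.59, adjusted p = 0.00253). *Gfpt1* (-0.12, adjusted p = 0.373) and *Uap1* (-0.25, adjusted p = 0.138), of the same route, were not called. *Cmas*, which activates sialic acid, fell by 0.37 (adjusted p = 0.0187). From the same list, *Nanp* also fell (-0.50, adjusted p = 0.0269), while *Gne* (0.20) and *Nans* (0.09) were higher in the mutant and not called. Of 8 enzymes that build O-GalNAc cores and branches, 2 fell and 1 rose. *C1galt1*, which makes core 1, fell by 0.35 (adjusted p = 0.0163), *Gcnt4* fell by 0.34 (adjusted p = 0.0156), and *Gcnt7* rose by 0.37 (adjusted p = 0.0303).

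Of 13 further terminal transferases, 3 rose and 3 fell. The largest differences were *Abo* (-0.77, adjusted p = 8.78e-04), the blood group transferase, *B3galnt1* (-0.70, adjusted p = 0.00354), which makes globoside, and *B4galnt3* (0.65, adjusted p = 7.44e-04), which adds GalNAc to GlcNAc. Among 10 measured exoglycosidases, which remove terminal sugars, only *Glb1*, the lysosomal beta-galactosidase, was called (-0.58, adjusted p = 0.00333). Of 8 galectins, which bind galactose-containing glycans, *Lgals8* (0.56, adjusted p = 0.00245) and *Lgals12* (0.48, adjusted p = 0.0116) rose and none fell.

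The called members were not equally firm. Under 18 other settings (17 for *St6galnac1*), which changed the arrays used, the scaling, the probe sets or the test, 5 of the 21 called members kept their call throughout: *Galntl5*, *St8sia3*, *Galntl6*, *Galnt1* and *B4galt5*. *B3gntl1* and *Galnt11* lost theirs under 1 setting each, as did *St6galnac2*, and *Slc35a1* and *St3gal4* under 2 each.

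No array left out took the call from *Galntl5*, *St8sia3*, *Galntl6*, *St6galnac2*, *Galnt1*, *B4galt5*, *Slc35a1*, *St3gal4*, *B3gntl1* or *Galnt11*. The other 11 called members lost theirs in at least 1 of these fits, each of which had fewer arrays. *Fut11* lost its call without any of the 6 arrays and *B4galt6* without any of 5. Without control replicate 2, 4 members were raised and 6 lowered, and the calls lost were those of *St3gal1* (-0.61), *St6galnac1* (0.45), *St3gal3* (-0.34), *St8sia6* (0.33), *B4galt6* (-0.33), *St6gal1* (-0.33), *Galntl2* (0.32), *St3gal6* (-0.29), *St6galnac6* (-0.29), *Slc35c1* (-0.28) and *Fut11* (-0.25). Without control replicate 1, *St6galnac1* (0.50), *Slc35c1* (-0.32), *Fut11* (-0.30) and *St6galnac6* (-0.27) lost their calls. Without control replicate 3, *St6gal1* (-0.49), *St3gal6* (-0.46), *B4galt6* (-0.43), *St6galnac6* (-0.31) and *Fut11* (-0.31) did.

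Without mutant replicate 1, 4 members were raised, and *St3gal1* (-0.61), *B4galt6* (-0.49), *St6galnac1* (0.38), *Slc35c1* (-0.37), *Galntl2* (0.35), *St6gal1* (-0.35), *St8sia6* (0.32) and *Fut11* (-0.28) lost their calls. Without mutant replicate 2, 9 members were lowered, and *B4galt6* (-0.46), *St3gal6* (-0.36), *Fut11* (-0.34), *St3gal3* (-0.33), *Slc35c1* (-0.30) and *St6galnac6* (-0.29) lost theirs. Without mutant replicate 3, *St3gal1* (-0.78), *St6gal1* (-0.47), *B4galt6* (-0.40), *St3gal6* (-0.36), *Slc35c1* (-0.36), *Galntl2* (0.31), *Fut11* (-0.24) and *St6galnac6* (-0.22) did. In each of these fits the direction was the same as with all 6 arrays.

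**Figure D4:**
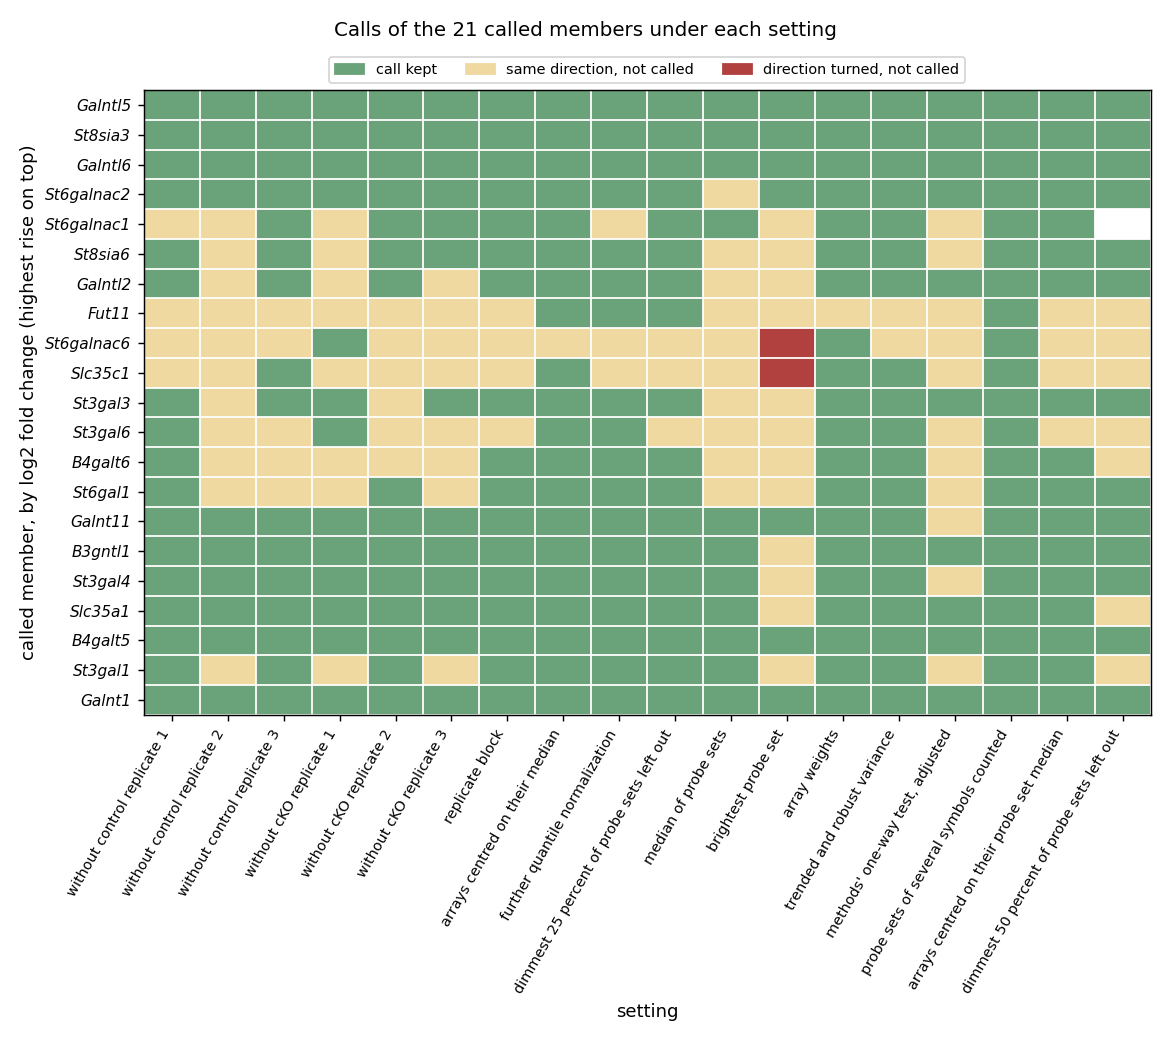
Calls of the 21 called members (rows, ordered by log2 fold change) under each of the settings (columns); green marks a call that was kept, yellow the same direction without a call, red the opposite direction without a call, and white a setting that left no probe set of the gene. *Galntl5*, *St8sia3*, *Galntl6*, *Galnt1* and *B4galt5* are green in every column, and *Fut11* and *St6galnac6* kept the call under 4 and 3 settings.

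A further 19 members, not called in the comparison of gene means, were called under at least 1 setting. Higher in the mutant under such a setting were *B3gnt1*, *B3gnt3*, *B3gnt8*, *Fut10*, *Fut4*, *Fut7*, *Slc35a3*, *St6gal2*, *St8sia4* and *St8sia5*. Lower were *B4galt3*, *B4galt4*, *B4galt7*, *Galnt12*, *Galnt14*, *Galnt2*, *Slc35a2*, *St3gal5* and *St6galnac4*. *St6gal2* had a gene difference of 0.00, whereas the fit that took each gene by its brightest probe set gave 0.52 (adjusted p = 0.0141). Adjusted over all probe sets, none of its probe sets was called. *St6galnac4* was called under 5 settings, with differences of -0.32 to -0.47, and had the lowest adjusted p of the uncalled members (-0.35, adjusted p = 0.0613). Some of these calls appeared when 1 array was left out: *Fut7* (0.37) and *B4galt4* (-0.42) without control replicate 1, *Fut4* (0.38), *Slc35a2* (-0.47) and *St6galnac4* (-0.47) without control replicate 3, *B4galt3* (-0.35) without mutant replicate 1, *St6galnac4* (-0.44) without mutant replicate 2, and *Galnt12* (-0.48), *Galnt2* (-0.48) and *St3gal5* (-0.39) without mutant replicate 3.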

How the data were processed

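RNA of testicular germ cells from 6 mice (3 control, 3 *Mgat1* cKO, grouped by the sample labels) was hybridized to 1 array per mouse. Litters are not stated, and an effect of litter cannot be told apart from that of genotype. Scanner data were turned by the authors into RMA values in Expression Console (background correction, normalization between arrays, probe summary), and the deposited values are log2 signals of 269751 probe sets, from 2.11 to 14.33. RMA compresses differences at low signal and hides any change in total RNA. No versions or builds are named for these steps, and no background level accompanies the values, so precision rests on 3 arrays per group.

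Probe sets were named through the platform's gene table: 233753 had 1 symbol, 5139 several and 30859 none. The mean of a gene's probe sets with 1 symbol gave 23152 genes. Genes, and separately probe sets, were compared with limma 3.58.1 in R 4.3.3 (lmFit, eBayes, 2-sided, no covariate, no filter, no further scaling), with Benjamini-Hochberg adjustment over all of them and calls at an adjusted p under 0.05; intervals are 95%. The code was tested on simulated data. Current symbols, neighbors and promoter windows (250 bases before the start) are from RefSeq (GRCm38.p6): 73 of 74 symbols were matched, 5 under another current name. Python 3.11.15 and matplotlib 3.10.9 drew the figures.

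The members, gene lists and tests were chosen with earlier results of these data known. All called members are named, with values on every array for the 7 rises, the 8 largest falls and 7 genes chosen by role (*B4galt1*, *Fut8*, *Galnt3* and the transporters). Uncalled members are named where a setting changes their call or a probe set stands apart, and a few others were named after their values were seen. Of the further lists, up to 3 called genes with the largest difference are named. Beyond these, *Cmas*, *Nanp* and some uncalled genes of the donor list are named.

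Alternatives were each array left out, a replicate block, median centring of genes or probe sets, quantile normalization, filters leaving out the dimmest 25% or 50% of probe sets, the median or brightest probe set, array weights, a trended and robust variance, the methods' one-way test, and the inclusion of probe sets with several symbols. Centring on the probe set median was chosen after seeing the data.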

Additional observations from a re-analysis of the deposited data

How the results depend on the processing

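Precision was set by 3 arrays per group. With each array left out in turn, the members raised ranged from 4 to 8 and those lowered from 6 to 12. The member probe sets lowered ranged from 10 to 23, below the 36 found with all 6 arrays. Each such fit had fewer arrays, and the reason for the lower numbers was not tested. Members lowered at least 2-fold ranged from 0 to 1 (*St3gal1*, -1.0016, without mutant replicate 2). With the median of probe sets 8 members were lowered, with the brightest probe set 6, and under the one-way test of the methods, once adjusted, 5. With the brightest probe set 1 member was lowered at least 2-fold (*Slc35a2*, -1.08) and the median over members was 0.039. The cause of these was not tested. With the replicate block 7 members were raised and 10 lowered. The labels give same-numbered arrays of the groups no link beyond the number. Correlations of their deviations were 0.03, 0.10 and -0.06, and 2 of 3 control arrays were closest to their own number. With 3 arrays per group, these values cannot decide whether same-numbered arrays shared a batch. Centring on the probe set median moved the median of all genes from -0.02 to 0.03 and the raised share of all calls from 42.1% to 51.6%. Members raised at least 2-fold numbered 2 with the median of probe sets and 4 with the brightest probe set or without the dimmest 50%, against 3 otherwise. The number of member probe sets raised ranged from 26 to 35.

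Directions turned for these genes. With the brightest probe set *Slc35a3* had 0.47 (called), *B4galt4* 0.31, *Slc35c1* 0.24, *Galnt12* 0.17, *St6galnac6* 0.091, *Galnt7* 0.060, *St3gal2* 0.041, *Mgat1* 0.011, *Fut4* -0.070, *B4galt1* -0.13 and *St8sia2* -0.38, and *Fut10* had 0.96 (called). Without the dimmest 50% of probe sets *Fut10* had 0.96 (called), *Galnt12* 0.17, *Mgat1* 0.13, *B4galt4* 0.10, *Slc35a3* 0.087, *B4galt1* -0.054 and *Fut4* -0.070, the last also without the dimmest 25%. With the median of probe sets *B4galt7* had 0.025, *St6galnac3* 0.013 and *B3gnt3* -0.099. *St6galnac3* had 0.21 with the brightest probe set and without the dimmest 25%. With array weights *Fut4-ps1* had -0.0080. With a further quantile normalization *B3gnt3* had -0.081, *St6gal2* -0.092, *Fut4-ps1* -0.091 and *Galntl4* -0.020. With arrays left out, *B3gnt3* ranged from -0.011 to 0.067, *B4galt1* from -0.057 to 0.113, *Fut10* from -0.196 to 0.0077, *Fut4-ps1* from -0.086 to 0.070, *Galnt3* from -7e-04 to 0.094, *Galntl4* from -0.072 to 0.088, *St6galnac3* from -0.246 to 0.0004, *St6galnac5* from -0.228 to 0.0025, *St6gal2* from -0.074 to 0.075 and *St8sia5* from -0.075 to 0.124. A change of background correction and a block for slide or scan date were not run, as the values are already summarized and carry no such label.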
